A study of Mus musculus with 6 samples.

Results

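The nuclear oxidative phosphorylation subunits are the nuclear genes that encode the structural proteins of the respiratory chain and of ATP synthase. They were taken by gene symbol, as genes whose symbol begins with Ndufa, Ndufb, Ndufc, Ndufs, Ndufv, Uqcr, Cox5, Cox6, Cox7, Cox8 or Atp5, together with Sdha to Sdhd and Cox4i1, leaving out Ndufa4l2, the Ndufaf genes and Cox4i2. Each gene was read from a probe set annotated to exactly 1 symbol, and where a gene had several, from the one with the highest mean over the 6 arrays. This gave 79 of 22180 genes, of which 33 belong to complex I, 4 to complex II, 8 to complex III, 16 to complex IV and 18 to complex V, the ATP synthase. Among them 77 are protein-coding and 2 are pseudogenes, Uqcrh-ps1 and Atp5c1-ps.

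The cells were NG2+ cells sorted from mouse tumors, which the labels name PVC and the study took as pericytes. T241, a mouse fibrosarcoma cell line, had been made to express human FGF-2 stably (FGF-2 tumors) or carried an empty vector (vector tumors), and was grown under the skin of the back of female C57BL/6 mice of 6 to 8 weeks of age until both kinds of tumor were of similar size. After collagenase digestion, NG2+EGFP- cells were sorted by flow cytometry, and total RNA of 3 biological samples per group was hybridized to 1 Affymetrix mouse gene 2.0 ST array each. The model is 1 tumor line with 1 pair of constructs, and NG2, the product of Cspg4, is not exclusive to pericytes. The question asked of the subunits was whether their mRNA levels differed between NG2+ cells of FGF-2 tumors and of vector tumors.

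In the inner mitochondrial membrane, complex I takes electrons from NADH and complex II takes them from succinate. Ubiquinone carries them to complex III and cytochrome c to complex IV, which reduces oxygen. Complexes I, III and IV pump protons, and complex V lets the protons flow back to make ATP. The subunits are encoded by 2 genomes, since a small set of core proteins of complexes I, III, IV and V comes from mitochondrial DNA, while complex II is wholly nuclear. In pericytes, the contractile cells on the outside of capillaries, respiration is one of the sources of ATP beside glycolysis.

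None of the subunits passed the test between the groups, and their differences were small. With limma and Benjamini-Hochberg adjustment over all 22180 genes, 0 of 79 subunits rose and 0 fell at an adjusted p under 0.05, where 1.03% of all genes rose and 0.284% fell (1.31% in all). The lowest adjusted p was 0.0766, that of Ndufs1. At an unadjusted p under 0.05, limma had 7 subunits higher and 3 lower in FGF-2 tumors (8.13% and 6.48% of all genes, 14.6% together), and the methods' t-test had 14 in either direction (12.9% of all genes), with 0 after adjustment. The median log2 fold change, FGF-2 minus vector, was 0.02 over the 79 subunits and -0.02 over all genes. It ran from -0.37 in Cox7c to 0.48 in Ndufs1, and 69 of 79 subunits (87.3%) differed by less than 0.25 in either direction, compared with 78.1% of all genes.

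The intervals give the precision that 6 arrays allowed for single genes, without adjustment for the number of genes tested. For 66 of 79 subunits the whole 95% interval of the log2 fold change lay within 0.5 of 0, and for all 79 it lay within 1, so that a doubling or halving of the mRNA was outside the interval of each subunit. The subunits were measured tightly, with a median SD within groups of 0.11 against 0.16 over all genes, at a median log2 level of 8.18 against 5.44. In 14 subunits the 3 FGF-2 arrays exceeded all 3 vector arrays and in 4 they were all lower, 17.7% and 5.06% of the 79 (22.8% together). The background was 11.3% and 9.93% of all genes (21.2% together), and 17.4% and 10.9% of the genes above the median level (28.3% together). The mean was higher in FGF-2 tumors in 43 of 79 subunits (54.4%, against 45.8% of all genes), a split that became 54 of 79 when each array was centred on its median and 38 of 79 after a further quantile normalization.

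**Figure D1:**
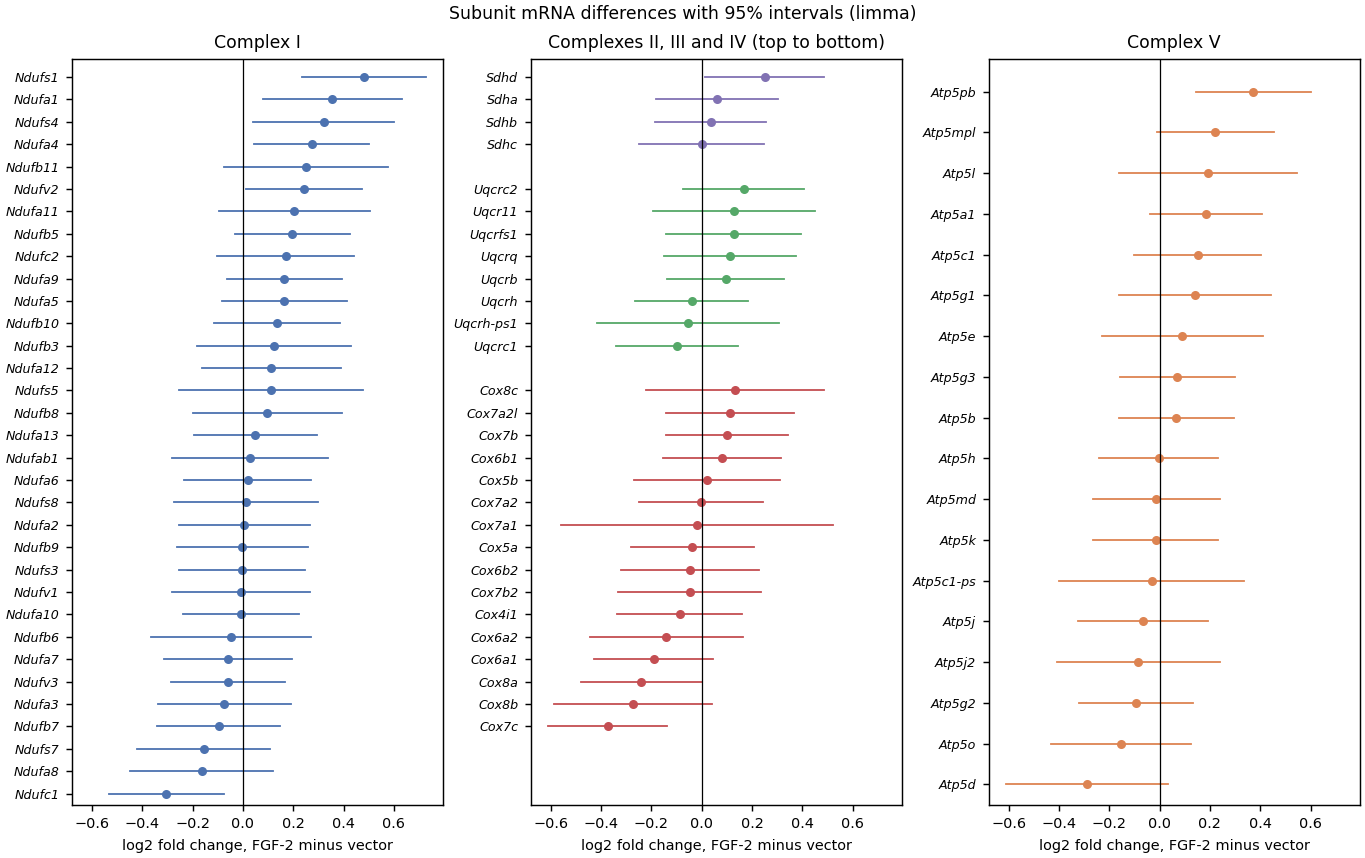
Log2 fold change (FGF-2 minus vector, x axis) of the 79 subunits by complex, with points for the estimates and lines for their 95% intervals from limma with 3 arrays per group. The estimates run from -0.37 (Cox7c) to 0.48 (Ndufs1), and 69 of 79 lie within 0.25 of 0.

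The complexes did not share 1 direction. The mean was higher in FGF-2 tumors in 21 of 33 subunits of complex I (median log2 fold change 0.05), 3 of 4 of complex II (0.05), 5 of 8 of complex III (0.10), 5 of 16 of complex IV (-0.04) and 9 of 18 of complex V (0.03). Ndufa4 was first assigned to complex I and is now placed in complex IV, and with it counted there 20 of 32 and 6 of 17 were higher. In each array, the median deviation of the 79 subunits from their own means over the 6 arrays was 0.0026, -0.01 and -0.07 in the vector arrays and -0.01, 0.00098 and 0.07 in the FGF-2 arrays. The groups overlapped, with the lowest value in vector replicate 3 and the highest in FGF-2 replicate 3.

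**Figure D2:**
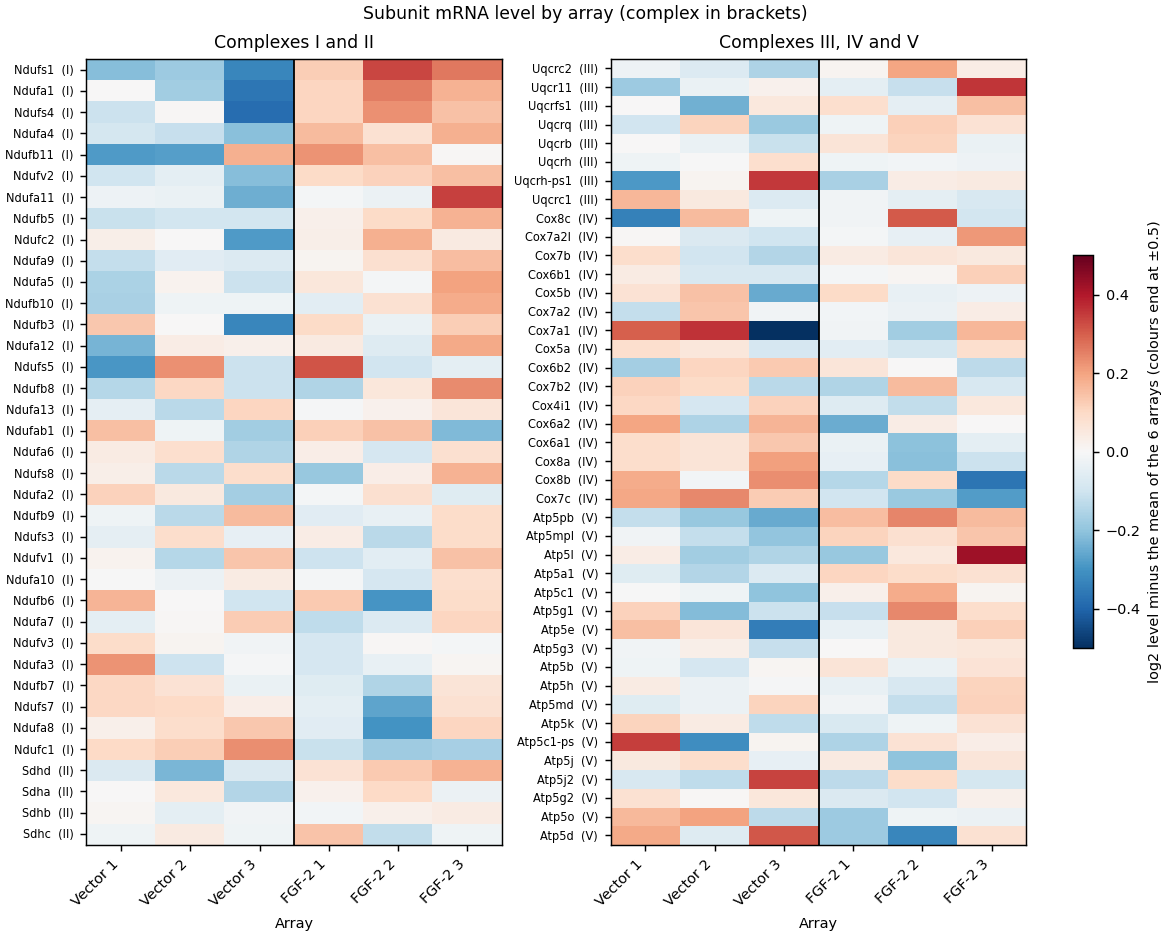
Log2 level of each subunit (rows, complex in brackets) in each array (columns) minus its mean over the 6 arrays, with red for higher and blue for lower values and colours ending at 0.5. A few rows, such as Ndufs1 and Cox7c, change colour at the line between the groups, most rows are pale, and vector replicate 3 holds low values of several complex I subunits.

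Promoter sequence was not used in the choice by symbol, and 22 of the 65 subunits with a promoter window hold letters of NRF1 or ETS factors in it. The transcription factors NRF1 and GABP (an ETS family factor) are known to bind promoters of many respiratory chain genes, and YY1 and the estrogen-related receptors (ERR) are also known to act there. RefSeq windows of 250 bases before to 50 after the start (GRCm38.p6) were found for 65 of the 77 protein-coding subunits, 70 windows in all. Letters were searched on both strands. GCGCATGC, for NRF1, was in 14.3% of these windows and 2.71% of all 32851 windows. CCGGAAG, for ETS factors, was in 24.3% and 8.86%, and AAGATGGC, for YY1, in 12.9% and 2.75%. AAGGTCA, for ERR, was in 8.57% and 4.72%, the GC box GGGCGG in 41.4% and 35.7%, and TATAAA in 12.9% and 13.6%. The median GC content was 57.5% in the subunits' windows and 52.7% in all windows. A match to letters is a description and not evidence of a bound site.

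NRF1 and ETS letters stood together in 5 of the 70 windows (7.14%, against 0.521% of all windows). These stretches are shown because they hold both strings at once, in lower case with the NRF1 and ETS letters of either strand in capitals, and none reaches more than 25 bases past the start. Atp5k and Atp5l encode subunits e and g of the membrane part of ATP synthase, Cox6a1 a subunit of complex IV, Sdhb the iron-sulfur subunit of complex II, and Uqcr11 a small subunit of complex III.
Atp5k, chr5:108434375-108434459, minus strand: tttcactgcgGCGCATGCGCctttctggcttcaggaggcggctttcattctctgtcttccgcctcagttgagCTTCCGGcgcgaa
Atp5l, chr9:44920936-44920992, minus strand: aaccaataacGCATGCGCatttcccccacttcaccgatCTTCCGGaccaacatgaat
Cox6a1, chr5:115348956-115349130, minus strand: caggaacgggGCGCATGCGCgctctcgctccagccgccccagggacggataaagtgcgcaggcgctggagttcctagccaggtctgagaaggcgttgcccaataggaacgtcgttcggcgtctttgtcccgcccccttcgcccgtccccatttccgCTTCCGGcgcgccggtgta
Sdhb, chr4:140961205-140961295, plus strand: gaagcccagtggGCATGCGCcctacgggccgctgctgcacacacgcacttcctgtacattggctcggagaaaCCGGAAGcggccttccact
Uqcr11, chr10:80406806-80406899, minus strand: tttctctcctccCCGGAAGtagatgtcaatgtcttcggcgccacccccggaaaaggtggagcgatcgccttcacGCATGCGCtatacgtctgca
In Atp5k and Cox6a1 the capitals of NRF1 cover 2 overlapping matches, 1 on each strand. None of these 5 genes passed the test, with log2 fold changes of -0.02 (Atp5k), 0.19 (Atp5l), -0.19 (Cox6a1), 0.04 (Sdhb) and 0.13 (Uqcr11).

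Holding these letters was set beside the difference between the groups, as a description. The median log2 fold change was 0.0011 in the 10 genes with NRF1 letters (range -0.19 to 0.20) and 0.03 in the 55 without. It was -0.0036 in the 17 genes with ETS letters (range -0.24 to 0.25) and 0.05 in the 48 without. In the 9 genes with YY1 letters it was -0.06, and these held both Ndufc1 (-0.30) and Atp5pb (0.37), near opposite ends of the list. Of the subunits with a window, Atp5pb had the highest fold change and Cox7c the lowest, and the 120 bases before their starts hold neither the NRF1 nor the ETS letters searched.
Atp5pb, chr3:105959264-105959383, minus strand: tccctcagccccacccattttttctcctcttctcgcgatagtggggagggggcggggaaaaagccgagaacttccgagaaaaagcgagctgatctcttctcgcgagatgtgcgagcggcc
Cox7c, chr13:86046796-86046915, minus strand: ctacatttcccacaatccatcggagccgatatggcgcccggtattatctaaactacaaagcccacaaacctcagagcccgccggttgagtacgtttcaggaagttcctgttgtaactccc

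In complex I, Ndufs1 (probe set 17223685, chromosome 1), the iron-sulfur subunit at the NADH-oxidizing end, had the highest fold change of all subunits. Its log2 level was 7.79, 7.82 and 7.67 in the vector arrays and 8.12, 8.34 and 8.26 in the FGF-2 arrays. The 3 FGF-2 arrays exceeded all vector arrays, and the means were 7.76 ± 0.08 and 8.24 ± 0.11 (SD, n = 3). The log2 fold change, with its SE, was 0.48 ± 0.11 (1.40-fold), with an unadjusted p of 0.0015 in limma and an adjusted p of 0.0766. By exact permutation of the 6 arrays, 2-sided, its p was 0.1, the smallest that 3 against 3 allows. By p it ranked 448 of 22180 genes. Another probe set, annotated to Ndufs1 and to a second gene, Ino80dos, was left out because it had more than 1 symbol.

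The other core subunits of complex I, those kept from bacteria to mammals, lay closer to 0. Ndufv2, an iron-sulfur subunit next to the NADH site, read 9.14, 9.20 and 9.03 in vector and 9.34, 9.36 and 9.40 in FGF-2 tumors. The groups did not overlap, with a log2 fold change of 0.24 (95% interval 0.01 to 0.47, adjusted p = 0.321 in limma). Ndufv1, which binds NADH, read 8.53, 8.37 and 8.65 against 8.41, 8.46 and 8.66. Its groups overlapped fully, and the interval of the log2 fold change was -0.28 to 0.27. Ndufs3 had a log2 fold change of -0.0036 (interval -0.25 to 0.25), Ndufs8 one of 0.01 (-0.27 to 0.30) and Ndufs7 one of -0.16 (-0.42 to 0.11), the last 2 being iron-sulfur subunits on the path to ubiquinone. Over the 6 core subunits measured, the median was 0.0044.

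The accessory subunits of complex I surround the core and have no redox centre. Among the 27 counted by symbol, which include Ndufa4, 18 averaged higher in FGF-2 tumors, with a median log2 fold change of 0.10. Ndufa1, a small membrane subunit needed for assembly, read 7.94, 7.77 and 7.58 in vector and 8.05, 8.19 and 8.11 in FGF-2 tumors. Ndufs4, which sits at the NADH-oxidizing end, read 7.77, 7.88 and 7.50 against 7.99, 8.10 and 8.02. In both genes the FGF-2 arrays lay above the vector arrays, and vector replicate 3 was the lowest of the 6. The log2 fold change was 0.36 (0.08 to 0.63, adjusted p = 0.222) for Ndufa1 and 0.32 (0.04 to 0.60, adjusted p = 0.279) for Ndufs4. Leaving out vector replicate 3 or another array in turn, or any other alternative, kept the fold change of Ndufa1 between 0.26 and 0.45 and that of Ndufs4 between 0.21 and 0.41.

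At the other end of complex I, Ndufc1, an accessory membrane subunit, read 7.28, 7.30 and 7.41 in vector and 7.07, 6.999 and 7.01 in FGF-2 tumors. The FGF-2 arrays were all under the vector arrays, with a log2 fold change of -0.30 (-0.53 to -0.07, adjusted p = 0.212). Its neighbor Ndufc2 went the other way, with 9.49, 9.47 and 9.18 against 9.49, 9.64 and 9.51 and a log2 fold change of 0.17 (-0.10 to 0.44). Ndufb5 and Ndufa9 also had FGF-2 arrays above all vector arrays, with log2 fold changes of 0.20 and 0.17. Ndufa8 had the next lowest fold change after Ndufc1, at -0.16 (-0.45 to 0.12).

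In complex II, which links the tricarboxylic acid cycle to the chain, Sdhd, a membrane anchor, was the subunit that differed most. It read 9.07, 8.91 and 9.07 in vector and 9.21, 9.27 and 9.31 in FGF-2 tumors, and the groups did not overlap. The log2 fold change was 0.25 (0.01 to 0.49), with an adjusted p of 0.314 in limma. Sdhc, the other anchor, read 8.78, 8.84 and 8.78 against 8.94, 8.68 and 8.78, and its interval was -0.25 to 0.25. Sdha, the flavoprotein that oxidizes succinate, and Sdhb, whose promoter is shown above, had log2 fold changes of 0.06 (-0.18 to 0.30) and 0.04 (-0.19 to 0.26).

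In complex III, 0 of 8 subunits had an unadjusted p under 0.05 in limma or in the test of the methods. Of all genes, 14.6% and 12.9% did, and 8 subunits are too few to set the complex apart from that background. Uqcrc2, 1 of the pair of core proteins, read 9.48, 9.44 and 9.35 in vector and 9.52, 9.71 and 9.55 in FGF-2 tumors, the groups being apart by a small gap, and its log2 fold change was 0.17 (-0.07 to 0.41). Uqcrc1, its partner in the core, was at -0.10 (-0.34 to 0.14). Uqcrfs1, the Rieske iron-sulfur protein, was at 0.13 (-0.14 to 0.40) and Uqcr11 at 0.13 (-0.19 to 0.45), while Uqcrh was at -0.04. The pseudogene Uqcrh-ps1 was at -0.05. Uqcr10 was on the array only on a probe set shared with another gene and was left out.

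In complex IV, Cox7c, a small membrane subunit found in all tissues, had the lowest fold change of all subunits. It read 6.03, 6.08 and 5.97 in vector and 5.74, 5.65 and 5.56 in FGF-2 tumors. The groups did not overlap, the FGF-2 arrays being the lower, with means of 6.03 ± 0.06 and 5.65 ± 0.09 (SD, n = 3). The log2 fold change and its SE were -0.37 ± 0.11, with an unadjusted p of 0.0059 and an adjusted p of 0.143 in limma. Cox8a, another small membrane subunit, read 10.79, 10.77 and 10.91 against 10.66, 10.49 and 10.59, and Cox6a1 read 11.99, 11.97 and 12.04 against 11.87, 11.70 and 11.86. In both, the FGF-2 arrays lay below the vector arrays, with log2 fold changes of -0.24 (adjusted p = 0.341) and -0.19 (adjusted p = 0.441). Of the 16 genes counted in complex IV by symbol, 0 had all FGF-2 arrays above the vector arrays (11.3% of all genes did). The FGF-2 arrays were all below in 3 of the 16 (18.75%, against 9.93% of all genes). With Ndufa4 counted there, 1 of 17 had them all above.

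The remaining complex IV subunits overlapped between the groups. Cox4i1, the widely expressed form of the largest nuclear subunit, read 9.63, 9.44 and 9.64 in vector and 9.46, 9.41 and 9.58 in FGF-2 tumors, with a log2 fold change of -0.09 (-0.34 to 0.16). Cox5a and Cox5b were at -0.04 (-0.28 to 0.21) and 0.02 (-0.27 to 0.31), Cox6b1 at 0.08 and Cox7b at 0.10. Cox7a2l, which helps complexes III and IV join into supercomplexes, was at 0.11 (-0.14 to 0.37). Cox7b had a second, dimmer probe set with a log2 difference of -0.30, and with the mean of both its fold change was -0.10.

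In complex V, Atp5pb (chromosome 3), subunit b of the stalk that holds the head of the enzyme still, had the highest fold change. It read 9.55, 9.48 and 9.42 in vector and 9.83, 9.92 and 9.83 in FGF-2 tumors. The FGF-2 arrays exceeded all 3 vector arrays, with means of 9.49 ± 0.07 and 9.86 ± 0.05 (SD, n = 3). The fold change on the log2 scale was 0.37 ± 0.10 (SE; 1.29-fold), with an unadjusted p of 0.005 and an adjusted p of 0.134 in limma. The other stalk subunits did not share it, with Atp5h at -0.0033 (-0.24 to 0.23), Atp5j at -0.06 (-0.32 to 0.19) and Atp5o at -0.15 (-0.43 to 0.12).

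The catalytic head had 5 measured subunits. Atp5a1, the alpha subunit, read 10.81, 10.73 and 10.80 in vector and 10.98, 10.96 and 10.95 in FGF-2 tumors, without overlap, and its log2 fold change was 0.18 (-0.04 to 0.41). Atp5b, the beta subunit that holds the catalytic sites, read 11.59, 11.53 and 11.62 against 11.68, 11.58 and 11.68, which overlapped, and was at 0.07 (-0.16 to 0.29). Atp5c1, the rotating gamma subunit, was at 0.15 (-0.10 to 0.40) and Atp5e, the epsilon subunit, at 0.09. Atp5d, the delta subunit, stood at the lower end with 8.86, 8.61 and 8.98 against 8.49, 8.35 and 8.75, overlapping groups and a log2 fold change of -0.29 (-0.61 to 0.03).

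Of the membrane part, the ring that turns with the proton flow is made of subunit c, and the same mature protein is encoded by Atp5g1, Atp5g2 and Atp5g3. Their log2 fold changes were 0.14 (-0.16 to 0.44), -0.09 (-0.32 to 0.13) and 0.07 (-0.16 to 0.30), and the groups overlapped in each. Atp5mpl, a small accessory protein, read 8.92, 8.82 and 8.74 in vector and 9.05, 9.02 and 9.08 in FGF-2 tumors, without overlap, at 0.22 (-0.01 to 0.45). Atp5l and Atp5k, whose promoters are shown above, were at 0.19 and -0.02, and in Atp5l the value of 9.98 in FGF-2 replicate 3 stood above the 9.36 and 9.60 of the other FGF-2 arrays. Atp5md was at -0.01 and Atp5j2 at -0.08.

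**Figure D3:**
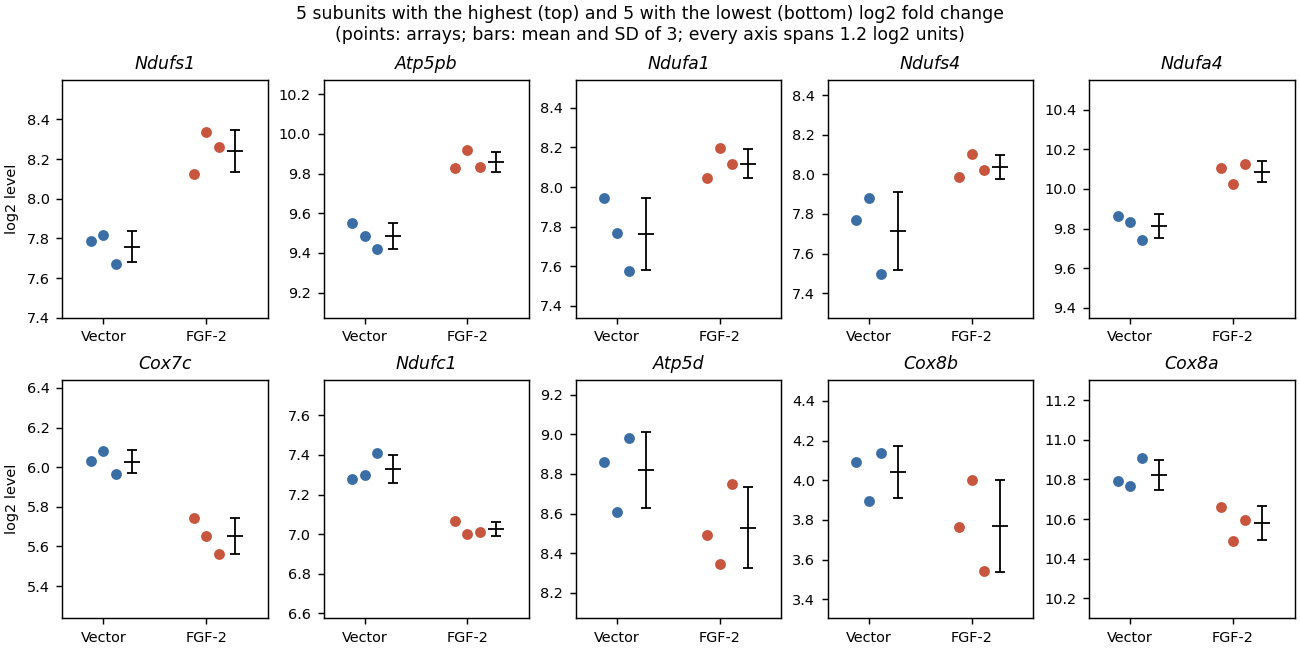
Log2 level by array of the 5 subunits with the highest log2 fold change (top: Ndufs1, Atp5pb, Ndufa1, Ndufs4 and Ndufa4) and the 5 with the lowest (bottom: Cox7c, Ndufc1, Atp5d, Cox8b and Cox8a), with points for the 3 arrays of each group and bars for their mean and SD. The groups are apart in the top 5 and overlap in Atp5d and Cox8b.

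Several subunits exist as paralogs that replace each other in particular tissues or states. Ndufa4 read 9.86, 9.83 and 9.74 in vector and 10.11, 10.03 and 10.13 in FGF-2 tumors. Its groups did not overlap, with a log2 fold change of 0.27 (0.04 to 0.50, adjusted p = 0.261 in limma). Its paralog Ndufa4l2, a hypoxia-inducible gene that lies outside the choice by symbol, rose from 4.80, 4.90 and 5.04 to 5.81, 5.81 and 6.08, by 0.99 ± 0.12 (SE) on the log2 scale with an adjusted p of 0.0061 in limma (0.179 in the methods' t-test). Within arrays, the log2 difference between Ndufa4l2 and Ndufa4 was higher in FGF-2 tumors by 0.71, without overlap (exact permutation test, 2-sided, p = 0.1, the smallest possible, and 0.7 after adjustment over the 7 paralog pairs compared).

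The other 6 pairs gave no such separation. The log2 difference between Cox4i2, the form of lung and hypoxic cells, and Cox4i1 was higher by 0.27 in FGF-2 tumors, with overlapping arrays (exact permutation p = 0.4). Cox6a2, Cox7a1 and Cox8b are the forms of heart and skeletal muscle, and their log2 fold changes were -0.14, -0.02 and -0.27, none of which passed. Cox7a1 read 5.67, 5.73 and 4.73 in vector and 5.35, 5.20 and 5.53 in FGF-2 tumors, with vector replicate 3 far below the other 5 arrays, and without it the log2 fold change was -0.34 (adjusted p = 0.24). Cox6b2, Cox7b2 and Cox8c, known from testis, read between 2.69 and 4.74 in the 6 arrays, with log2 fold changes of -0.05, -0.05 and 0.13. Of the 12 skeletal muscle markers, 4 averaged higher in FGF-2 tumors and none passed, and their mean log2 level was 4.76 to 4.78 in vector and 4.69 to 4.86 in FGF-2 arrays.

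**Figure D4:**
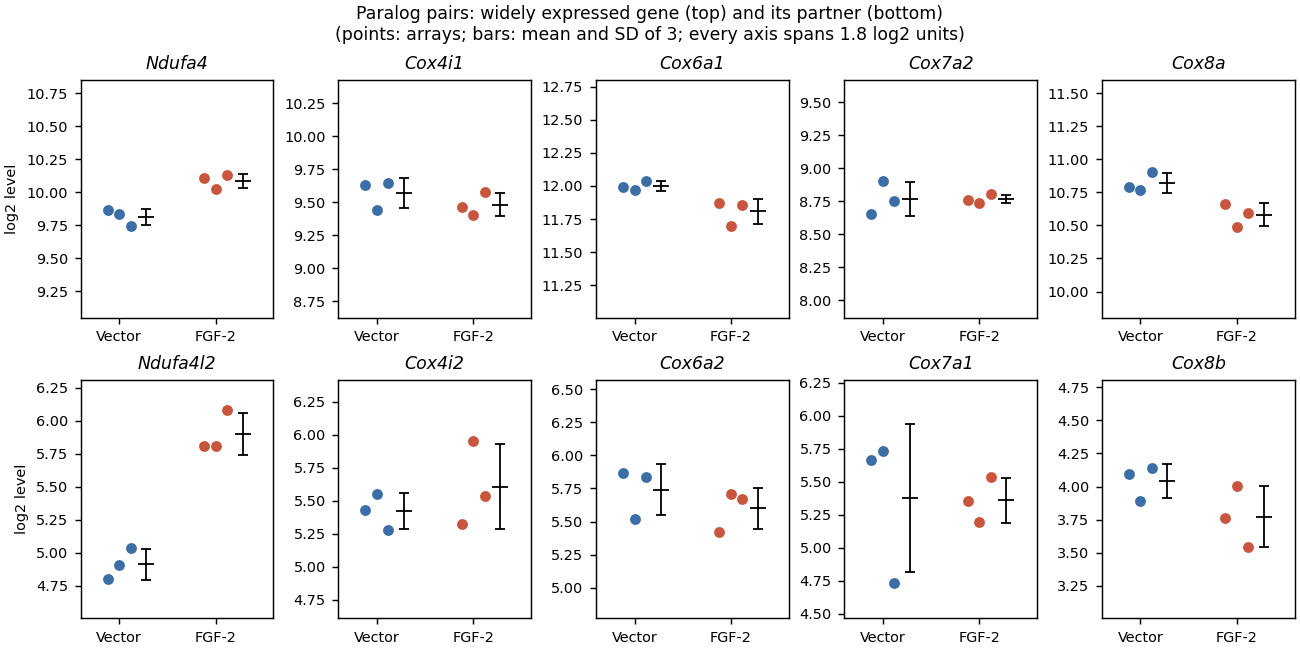
Log2 level by array of 5 widely expressed subunits (top) and their paralogs (bottom), with points for the 3 arrays of each group and bars for the mean and SD. Ndufa4l2 is the 1 gene of the 10 that passed the test, by 0.99 on the log2 scale, and vector replicate 3 lies apart from the other vector arrays in Cox7a1.

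The mean log2 level of 9 subunits was under 5, among them Ndufb11 and Ndufs5, which complex I contains in every tissue, beside the testis forms and the pseudogenes. Brightness also depends on the probes, so the tests compared each gene between groups, and levels of different genes are given as description only. Without these 9, the median log2 fold change of the other 70 was 0.03, with 40 higher and 30 lower. A second probe set was present for 9 subunits, and its difference had the same sign as that of the one used in 5 of them. Ndufs6, Ndufb4, Ndufb2, Uqcr10 and Cox6c were on the array only on probe sets shared with another gene and were left out.

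The subunits that mitochondrial DNA encodes were compared with the nuclear ones, since the same complexes need both. Of 13 genes, 10 were measured and 0 passed, with a median log2 fold change of 0.08. The mean was higher in FGF-2 tumors in 9 of the 10 (90%, against 45.8% of all genes). In 6 of the 10 (60%) the 3 FGF-2 arrays exceeded all 3 vector arrays. The background was 11.3% of all genes and 17.4% of the genes above the median level. ND3, a membrane subunit of complex I, read 12.51, 12.36 and 12.58 in vector and 12.87, 12.95 and 12.75 in FGF-2 tumors, without overlap, at 0.37 (0.12 to 0.63, adjusted p = 0.17 in limma). The other 9 lay between -0.11 (ND6) and 0.15 (ND4L), and COX1, the catalytic subunit of complex IV, was at 0.05 (-0.18 to 0.27). Cytochrome c, encoded by the nuclear gene Cycs, was at 0.20 and Cyc1, the cytochrome c1 of complex III, at -0.07, and neither passed.

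Genes that build and regulate the chain were likewise without a call. Among 17 complex I assembly factors, 12 were higher and the highest was Ndufaf7, a methyltransferase, at 0.52 (adjusted p = 0.0609). Among 33 assembly factors of complexes II to V, 19 were higher. Of 18 regulators of mitochondrial biogenesis, 10 were higher, and the lowest log2 fold change was -0.36. Tfam, which packages mitochondrial DNA and starts its transcription, stood at 0.46 (adjusted p = 0.0735). At an unadjusted p under 0.05, limma had 4 higher and 0 lower among the complex I assembly factors. The counts were 2 higher and 5 lower for complexes II to V, and 1 higher and 3 lower for the regulators (8.13% and 6.48% of all genes). Nrf1 and Gabpa, whose letters were searched in the promoters, were at 0.03 (-0.24 to 0.30) and 0.02 (-0.23 to 0.26), Yy1 at 0.11 and Esrra at -0.28 (adjusted p = 0.3).

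The medians of neighboring pathways ran from -0.20 to 0.18, and no gene of them passed. The median log2 fold change was 0.18 over 16 tricarboxylic acid cycle and pyruvate dehydrogenase genes, 12 of them higher (75%, against 45.8% of all genes). Of the 16, 6 were higher at an unadjusted p under 0.05 in limma (37.5%, against 8.13% of all genes). The methods' t-test had 7 at that threshold (12.9% of all genes in either direction). The median was 0.15 over 19 fatty acid oxidation genes and 0.14 over 23 import and carrier genes. Over 17 glycolysis genes it was -0.20, 16 of them averaging lower in FGF-2 tumors. At an unadjusted p under 0.05 limma had 4 of the 17 lower and 0 higher (6.48% and 8.13% of all genes). Mitochondrial ribosomal proteins (45 of 71 higher, median 0.05) and cytosolic ribosomal proteins (42 of 67, 0.03) lay near the subunits' 0.02.

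**Figure D5:**
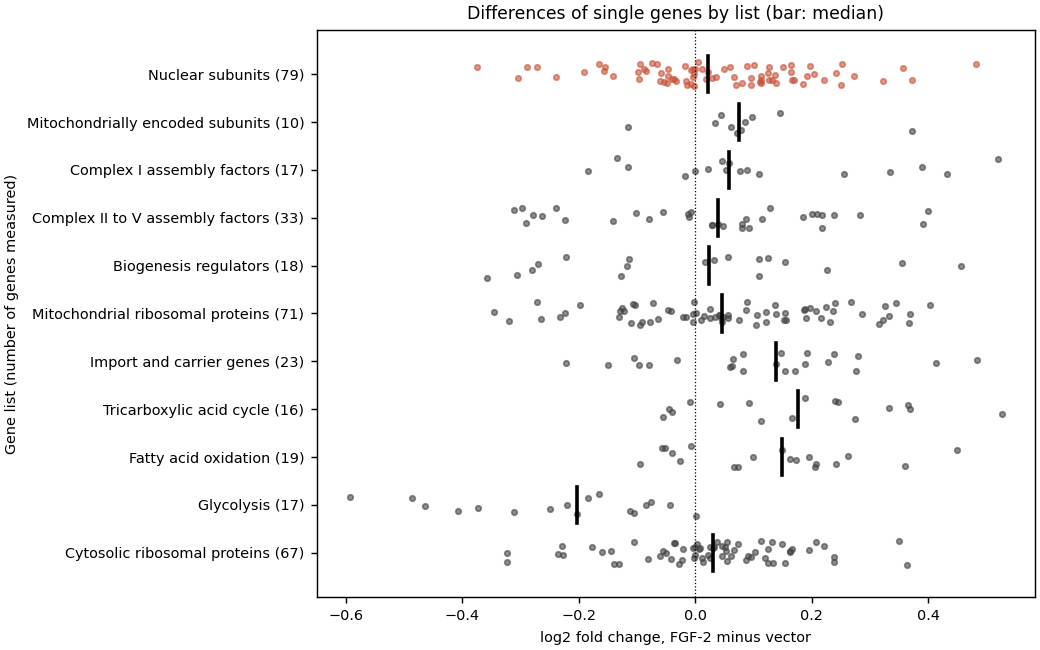
Log2 fold change (FGF-2 minus vector, x axis) of single genes in the subunits and 10 other lists (rows, with the number of genes measured), with a point for each gene and a bar for the median. The median of the 79 nuclear subunits is 0.02, that of the 16 tricarboxylic acid cycle genes 0.18 and that of the 17 glycolysis genes -0.20, and no gene plotted passed the test.

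Among the marker lists of cell types, the median log2 fold change was 0.71 for pericytes and smooth muscle, 1.12 for fibroblasts, 0.17 for endothelial cells, -0.10 for macrophages, -0.26 for B and plasma cells, -0.34 for T and NK cells and 0.0021 for neutrophils. Of 14 pericyte and smooth muscle markers all 14 averaged higher in FGF-2 tumors and 5 rose, their mean log2 level being 5.95 to 6.18 in vector and 6.72 to 7.12 in FGF-2 arrays. Of 11 fibroblast markers 11 were higher and 6 rose (6.22 to 6.89 against 7.62 to 8.09), and of 15 macrophage markers 6 were higher and 2 fell (10.69 to 11.10 against 10.77 to 10.94). All 10 endothelial markers averaged higher and 1 rose, and all 6 B and plasma cell markers averaged lower and 1 fell. Of 8 T and NK cell markers 5 averaged lower and 0 passed (4 lower at an unadjusted p under 0.05 in limma). Of 8 neutrophil markers 4 averaged higher and 1 rose. Adipocyte markers averaged higher in 6 of 6 and 1 rose (median 0.07). Markers of proliferating cells averaged higher in 6 of 7 and 0 passed (median 0.18). Cspg4, the gate's own gene, was at 0.41 (adjusted p = 0.161), and 12 of 12 genes of the dissociation response were lower, 3 of which fell. For comparison, 45.8% of all genes averaged higher, 1.03% rose and 0.284% fell, and 6.48% were lower at an unadjusted p under 0.05 in limma. The median log2 level was 11.19 over the macrophage markers, 6.11 over the pericyte and smooth muscle markers and 5.44 over all genes. Brightness also depends on the probes, and the share of each cell type in the sorted cells was not tested. In such bulk samples a change in the share of a cell type and a change in RNA per cell cannot be told apart, and the part of these markers in the subunits' values was not tested.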

How the data were processed

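Total RNA of NG2+EGFP- cells from 3 vector and 3 FGF-2 tumors was hybridized to 1 array per sample. The deposited values are log2 levels normalized by the authors' service laboratory. Per the labels, Affymetrix Expression Console was used, and the version, the summarization method and the build of the array annotation are not given in the sources used here. The 6 arrays had medians of 4.93 to 5.01, and the number of arrays limits the precision. No value was normalized again in the main comparison.

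Of 33793 probe sets, 23521 had 1 gene symbol, 1820 several and 8452 none. FGF-2 and vector arrays were compared in R 4.3.3 with limma 3.58.1 (constant prior, two-sided, no replicate block, Benjamini-Hochberg over 22180 genes), which was tested on simulated data. All 79 subunits were found by Entrez ID in RefSeq with the same symbol. Alternatives were a replicate block, further normalization, filters on low values, means of probe sets, other priors, array weights, the methods' t-test and leaving out each array.

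The members, the gene lists and the tests were chosen with earlier results of these data known. Named genes were, per complex, the 3 with the highest and the 3 with the lowest fold change, plus paralogs, redox and catalytic subunits, and up to 3 per direction of each other list. Outside this rule, and chosen after their values were seen, are Nrf1, Gabpa and Yy1 (promoter letters), Ndufb5, Ndufa9, Ndufc2 and Atp5c1 (non-overlap), Cox5a, Cox5b, Atp5e, Atp5h, Atp5j, Atp5j2, Atp5k and Atp5md (to complete their complexes), and Ndufb11, Ndufs5 and Atp5c1-ps (low values).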

Additional observations from a re-analysis of the deposited data

How the results depend on the processing

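No alternative called any of the 79 subunits: 0 rose and 0 fell in all 15, and the lowest adjusted p was 0.0582, for Ndufs1 when genes above the median level were tested only. Over these alternatives the fold changes of Ndufs1 (0.43 to 0.54), Atp5pb (0.32 to 0.41) and Cox7c (-0.42 to -0.33) kept their direction. Ndufa4l2 passed in 13 of the 14 alternatives that tested it (0.89 to 1.05) and not in the methods' t-test. Subunits at an unadjusted p under 0.05 numbered 7 higher and 3 lower, and 3 and 3 without FGF-2 replicate 2 or without FGF-2 replicate 3. With 3 arrays per group, the intervals in the report give the precision for single genes, without adjustment for the number of genes tested. They are not a limit of detection, since the intervals of 7 higher and 3 lower subunits excluded 0 and none of these passed.

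Over all genes 291 passed, against 554 with array quality weights and 2 with the methods' t-test, and leaving out 1 array in turn gave 75 (without FGF-2 replicate 1) to 439 (without vector replicate 3). The labels number the samples 1 to 3 in both groups, and the numbers were not taken as pairs because the methods pair no samples. The deviations of same-numbered samples correlated at -0.02, 0.19 and 0.26, and those of differently numbered samples at -0.26 to 0.13. These correlations do not decide whether the samples were paired. With the replicate number as a block, 494 genes and 0 subunits passed (adjusted p of Ndufs1 0.0771).

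The median of complex II, 0.048 in the main comparison, was -0.0019 after further quantile normalization and 0.082 after centring. That of complex III, 0.104, was 0.071 and 0.138 under these and 0.070 with array weights. Leaving out arrays gave 0.019 (without vector replicate 3) to 0.063 for complex II, 0.031 (without FGF-2 replicate 3) to 0.102 for complex III and -0.090 (without vector replicate 3) to -0.0089 for complex IV. Of the values of the 60 named subunits under alternatives, 818 kept their sign and 62 did not, each of a subunit with an adjusted p of at least 0.72. After further quantile normalization these were Sdhb (-0.013), Cox7a1 (0.0076), Cox5b (-0.020) and Ndufs8 (-0.037). After centring they were Sdhc (0.034), Cox7a1 (0.017), Cox7a2 (0.031), Ndufs3 (0.031), Atp5h (0.031), Atp5md (0.020), Atp5k (0.018), Atp5c1-ps (0.0017) and Ndufv1 (0.027), with array weights Sdhc (0.026), Ndufs8 (-0.00080), Cox5b (-0.020), Atp5md (0.015) and Ndufv1 (0.012), and with the mean of both probe sets Cox7b (-0.10), Cox5b (-0.053), Atp5e (-0.012) and Atp5h (0.115). Leaving out 1 array gave log2 fold changes on both sides of 0 for Sdhc (-0.071 to 0.061), Uqcr11 (-0.020 to 0.217), Uqcrh-ps1 (-0.21 to 0.11), Cox8c (-0.0034 to 0.245), Cox6b2 (-0.143 to 0.0074), Cox7a1 (-0.339 to 0.159), Cox7a2 (-0.062 to 0.066), Cox7b2 (-0.139 to 0.014), Ndufs3 (-0.050 to 0.063), Ndufs8 (-0.072 to 0.111), Cox5b (-0.098 to 0.101), Atp5h (-0.059 to 0.036), Atp5md (-0.075 to 0.042), Atp5k (-0.083 to 0.035), Atp5c1-ps (-0.20 to 0.13), Atp5e (-0.061 to 0.186), Ndufs5 (-0.016 to 0.255), Atp5j2 (-0.17 to 0.062), Atp5j (-0.111 to 0.020) and Ndufv1 (-0.082 to 0.059). The cause was not tested.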
